A study of Mus musculus with 18 samples.

Results

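The receptors for interleukin-1, interleukin-18 and interleukin-36 were followed across 7 groups of sorted mouse CD4+ T cells. The 6 genes are Il1r1, Il1r2, Il1rl2, Il1rap, Il18r1 and Il18rap, of 18194 genes measured, and each was read from probe sets that the chip annotation assigns to that gene alone. Where a gene had several such probe sets, the one with the largest variance over the 18 arrays stood for it. The genes were listed by family membership, with earlier results of these data known.

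The cells were freshly isolated from B6;129 mice (lymph nodes and spleen) that were heterozygous at Foxp3, the X-linked gene whose product is the master regulator of regulatory T (Treg) cells. One allele, wild type or mutant, was tagged with human CD2 (hCD2), and the other was always wild type and tagged with GFP. Mice with a wild-type hCD2 allele gave conventional CD4+ T cells that were negative for both tags (Tconv, 2 arrays), wild-type Treg cells with GFP (WT GFP, 2 arrays) and wild-type Treg cells with hCD2 (WT hCD2, 2 arrays, numbered 3 and 4). Mice with an A384T:hCD2 allele gave A384T Treg cells (3 arrays) and wild-type GFP Treg cells (WT GFP of A384T mice, 3 arrays). Mice with an I363V:hCD2 or R397W:hCD2 allele gave mutant Treg cells (3 arrays each). All mutant Treg cells therefore came from mice that could also form wild-type Treg cells. No wild-type array came from I363V or R397W mice, so for these mutants the mutation and the mouse cannot be told apart. No label states that arrays come from separate animals. A p-value here thus reflects the spread between samples, which may be technical, and precision is limited by the few arrays.

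These receptors belong to one family. The IL-1 receptor Il1r1 and the IL-36 receptor Il1rl2 each bind their ligand and recruit the shared accessory chain Il1rap, after which MyD88 and IRAK kinases activate NF-kB. Il1r2 binds IL-1 but lacks the signalling domain, so it acts as a decoy, and it is known as a gene expressed by activated Treg cells. Il18r1 binds IL-18 and needs its own accessory chain, Il18rap, to signal, a pair best known in Th1 and natural killer cells.

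RefSeq promoter windows of the mouse build GRCm38.p6, each from 250 bases before to 50 bases after an annotated start, were matched for 6 of 6 genes (9 windows). The annotated genes Il1r2 and Il1r1 begin further out, at chr1:40084692 and chr1:40222480, and no window covered these positions. The stretches before the start are shown for the 3 genes whose values differed between groups (Il1r2, Il1rl2 and Il18rap) and for Il18r1, the partner of Il18rap. They lie on the + strand at chr1:40085843-40086092, chr1:40324339-40324588, chr1:40515112-40515361 and, for the first of its 3 windows, chr1:40465302-40465551. Capitals mark matches to the motifs searched.
Il1r2: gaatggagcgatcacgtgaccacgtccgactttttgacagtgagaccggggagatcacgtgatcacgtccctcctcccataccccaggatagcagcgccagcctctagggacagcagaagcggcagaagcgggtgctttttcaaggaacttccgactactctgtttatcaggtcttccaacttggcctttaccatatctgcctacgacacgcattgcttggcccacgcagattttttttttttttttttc
Il1rl2: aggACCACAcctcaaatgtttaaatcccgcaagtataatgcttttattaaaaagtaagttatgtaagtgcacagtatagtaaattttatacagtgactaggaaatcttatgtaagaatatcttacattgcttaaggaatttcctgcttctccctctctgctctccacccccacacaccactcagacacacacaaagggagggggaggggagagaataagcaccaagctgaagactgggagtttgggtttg
Il18rap: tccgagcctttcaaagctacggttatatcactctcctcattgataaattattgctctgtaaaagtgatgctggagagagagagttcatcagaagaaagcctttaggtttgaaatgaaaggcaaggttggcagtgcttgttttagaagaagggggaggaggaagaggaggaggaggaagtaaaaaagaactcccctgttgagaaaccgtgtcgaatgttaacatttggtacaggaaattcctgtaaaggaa
Il18r1: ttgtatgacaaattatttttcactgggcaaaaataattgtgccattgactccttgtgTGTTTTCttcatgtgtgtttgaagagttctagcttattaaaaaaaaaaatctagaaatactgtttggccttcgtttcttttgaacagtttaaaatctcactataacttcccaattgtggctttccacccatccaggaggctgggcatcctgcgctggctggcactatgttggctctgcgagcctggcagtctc

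Each full window was searched on both strands for a forkhead core (TGTTTNC), an AP-1 motif (TGANTCA) and a Runx motif (TGTGGT), motif classes linked to Foxp3 and its partner factors. Of 32851 windows, 20.5% held the forkhead core, 7.8% the AP-1 motif and 16.8% the Runx motif. The Il1r2 window held none of the 3. The Il1rl2 window held 1 Runx match on the opposite strand, whose first base lies 247 bases before the start. The Il18rap window held 1 Runx match, also on the opposite strand, 31 bases after the start, beyond the stretch printed. Of the Il18r1 windows, the first held a forkhead match 193 bases before the start and the second a Runx match 21 bases after it. No match was found in the windows of Il1r1 or Il1rap. A match is a description of these letters, and binding was not measured.

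Values are log2 differences from the average of both Tconv arrays, because the deposited values had been shifted that way at each probe set. A value is therefore a difference from Tconv and not a level, and the genes cannot be ranked by abundance. A gene counted as called where limma's moderated test gave an adjusted p below 0.05, with the Benjamini-Hochberg method run over 18194 genes. In bulk samples, fewer cells of a type and less RNA per cell cannot be told apart. Foxp3 itself lay between -0.07 and 0.07 in Tconv and between 6.38 and 7.59 in the 16 Treg arrays. Each library thus matched its label as Tconv or Treg, although the array does not read the mutations. Foxp3 was not equal among the Treg groups. The lowest wild-type Treg array read 7.06 (WT hCD2), and A384T read 7.22 to 7.53. All R397W arrays lay below every wild-type Treg array, whereas I363V (6.51 to 7.11) overlapped the wild-type range. The part of Foxp3 RNA level in the receptor differences was not tested. As a list, 5 Treg markers averaged 4.66 to 4.88 in the wild-type and A384T groups, 4.10 to 4.15 in I363V and 3.71 to 4.15 in R397W, and the T cell identity genes stayed between -0.10 and 0.24 on all arrays.

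**Figure D1:**
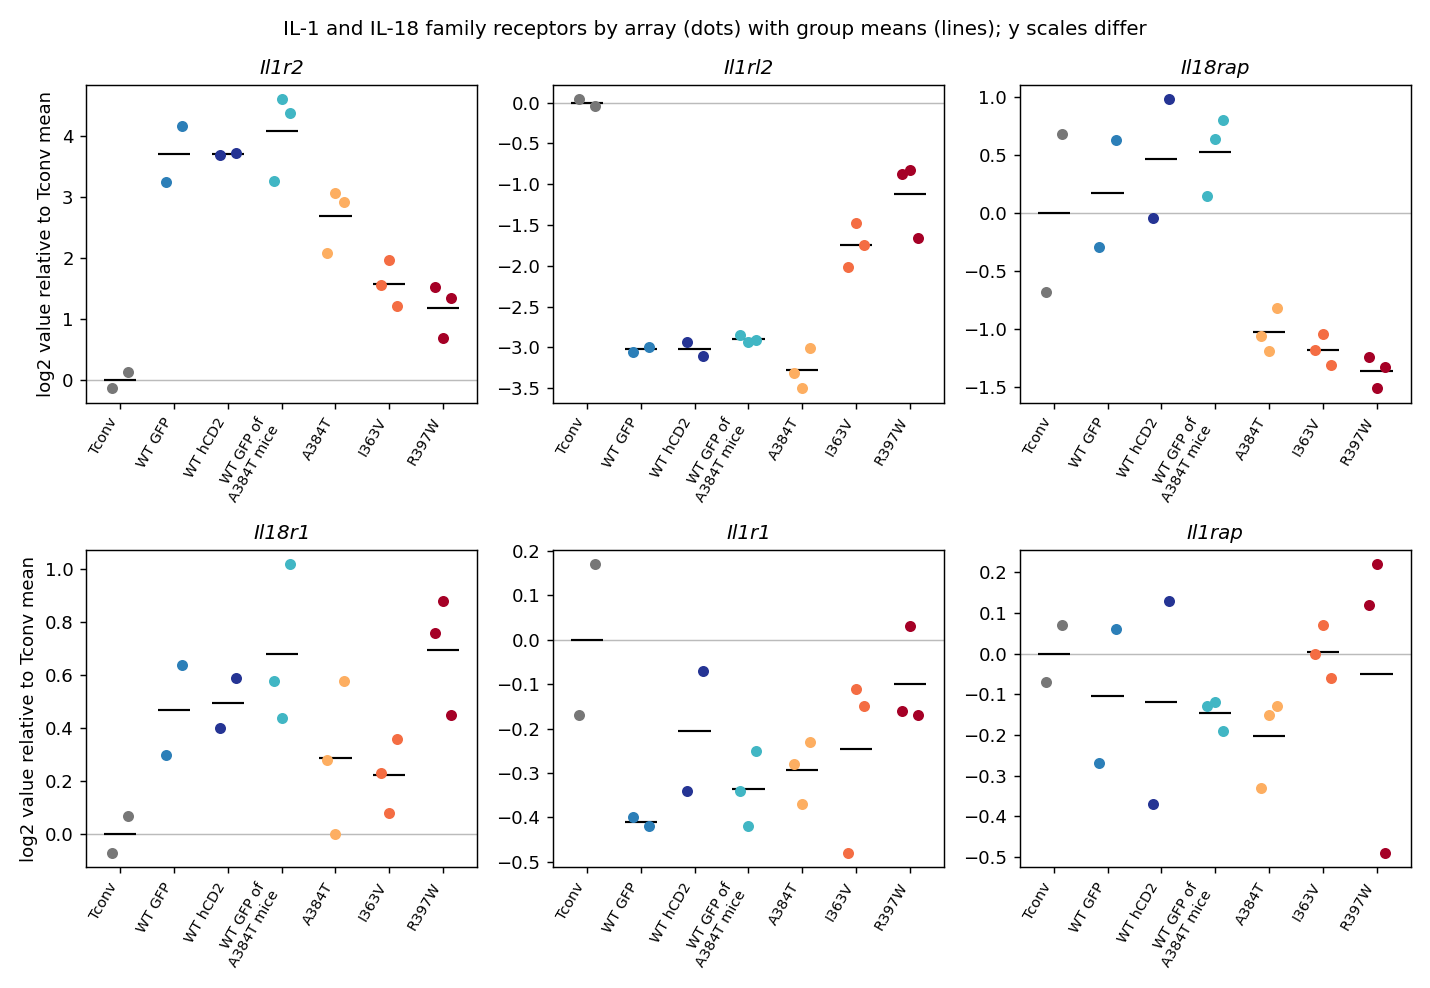
Log2 value relative to the Tconv mean (y axis) of the 6 receptor genes on each of 18 arrays (dots), by group (x axis), with group means as lines and a y scale of its own for each gene. Il1r2, Il1rl2 and Il18rap separate groups, while Il1r1 stays between -0.48 and 0.17 and Il1rap between -0.49 and 0.22.

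The decoy receptor Il1r2 was 13.0-fold higher in wild-type Treg cells than in Tconv, and it was lower in I363V and R397W than in wild type. The arrays read -0.13 and 0.13 in Tconv, 3.24 and 4.16 in WT GFP, and 3.69 and 3.72 in WT hCD2. In A384T mice, the wild-type GFP cells read 3.26, 4.60 and 4.38, and the A384T cells read 2.09, 3.07 and 2.92. I363V read 1.56, 1.97 and 1.21, and R397W read 1.53, 0.69 and 1.34. Every mutant array lay below every wild-type Treg array and above both Tconv arrays. A384T did not overlap I363V, whereas I363V and R397W overlapped.

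Wild-type Treg cells (the mean of WT GFP and WT hCD2) exceeded Tconv in Il1r2 by 3.70 ± 0.38 (SE, adjusted p = 1.79e-05, limma). Of the 6 receptors, Il1r2 rose and Il1rl2 fell in this comparison, in which 5.84% of all genes were called. The means fell in the order WT GFP of A384T mice (4.08 ± 0.72, SD, n = 3), WT hCD2 (3.71 ± 0.02, n = 2), WT GFP (3.70 ± 0.65, n = 2), A384T (2.69 ± 0.53, n = 3), I363V (1.58 ± 0.38, n = 3) and R397W (1.19 ± 0.44, n = 3). The neighbours tested were WT hCD2 and WT GFP, A384T and I363V, I363V and R397W, and R397W and Tconv, and none of these pairs differed by a called test. A384T was not tested against WT GFP alone, nor WT GFP of A384T mice against WT hCD2. A384T against WT hCD2, whose mean is close to that of WT GFP, gave -1.01 ± 0.41 (SE, 95% interval -1.88 to -0.15, adjusted p = 0.541, limma). As shares of the wild-type Treg difference from Tconv, on the log2 scale, A384T kept 72.7%, I363V 42.6% and R397W 32.1%.

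Against WT hCD2, Il1r2 was 4.37-fold lower in I363V (-2.13 ± 0.41, SE, adjusted p = 0.0212, limma) and 5.73-fold lower in R397W (-2.52 ± 0.41, adjusted p = 0.00382). These comparisons share the same 2 WT hCD2 arrays. R397W was also 2.84-fold below A384T (-1.50 ± 0.36, adjusted p = 0.0377), whereas I363V against A384T gave -1.11 ± 0.36 (95% interval -1.89 to -0.34, adjusted p = 0.255). R397W against I363V gave -0.39 ± 0.36 (95% interval -1.17 to 0.39, adjusted p = 0.82). Against Tconv, Il1r2 stayed 6.47-fold higher in A384T (adjusted p = 0.000573). The differences from Tconv of 1.58 ± 0.41 in I363V (adjusted p = 0.0573) and 1.19 ± 0.41 in R397W (adjusted p = 0.219) were not called. With the spread taken only from the groups compared, the calls against WT hCD2 ended for I363V (adjusted p = 0.0549) and R397W (adjusted p = 0.051), and that of R397W against A384T ended as well (adjusted p = 0.0675). The I363V call also ended without WT hCD2 array 3 (adjusted p = 0.111) or 4 (0.23) or without I363V array 1 (0.0689) or 3 (0.0831). That of R397W against A384T ended without A384T array 2 (adjusted p = 0.164) or 3 (0.134) or without R397W array 2 (0.126) or 3 (0.0564).

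**Figure D2:**
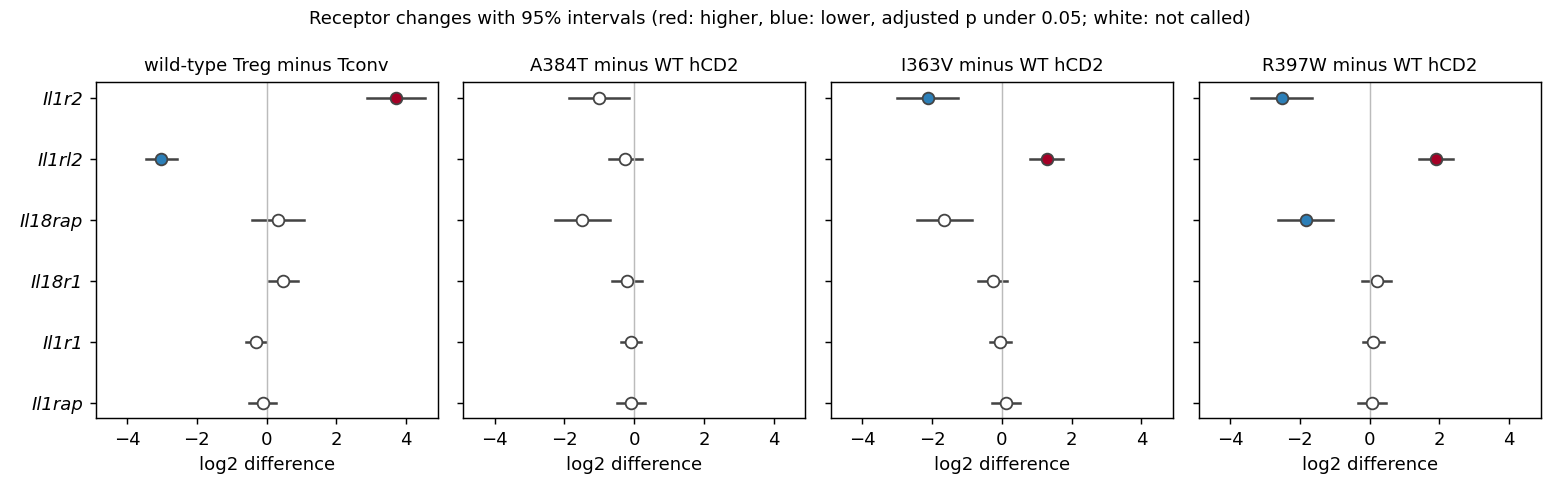
Log2 differences (x axis) of the 6 receptor genes (y axis) with 95% intervals in 4 comparisons, where red points are called higher, blue points called lower and white points not called. Il1r2 and Il1rl2 point in opposite directions in wild-type Treg cells against Tconv (3.70 and -3.02) and in R397W against WT hCD2 (-2.52 and 1.91).

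The signalling receptor for IL-1, Il1r1, was called in no comparison without a block, by either of its 2 probe sets. Its arrays read -0.17 and 0.17 in Tconv, -0.40 and -0.42 in WT GFP, -0.34 and -0.07 in WT hCD2, and -0.34, -0.42 and -0.25 in WT GFP of A384T mice. The mutants read -0.28, -0.37 and -0.23 (A384T), -0.48, -0.11 and -0.15 (I363V), and -0.16, 0.03 and -0.17 (R397W). Except for WT hCD2 array 4, the wild-type Treg arrays lay below both Tconv arrays, and the mutants overlapped wild type. Over 13 pairwise comparisons its changes ran from -0.31 to 0.21, the bounds of their 95% intervals from -0.59 to 0.53, and the lowest adjusted p was 0.255 (limma). Wild-type Treg cells against Tconv gave -0.31 ± 0.13. With WT GFP alone against Tconv and the array number as a block, Il1r1 was called lower (-0.41 ± 0.13, adjusted p = 0.0463), in a fit that called 3347 genes.

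The IL-36 receptor Il1rl2 was 8.12-fold lower in wild-type Treg cells than in Tconv. It was higher in I363V and R397W than in wild type, and higher in both than in A384T. In A384T, whose Il1r2 arrays also lay below all wild-type Treg arrays, the Il1rl2 mean was the lowest of all groups. The arrays read 0.04 and -0.04 in Tconv, -3.06 and -2.99 in WT GFP, -2.94 and -3.11 in WT hCD2, and -2.85, -2.94 and -2.91 in WT GFP of A384T mice. A384T read -3.32, -3.50 and -3.01, I363V read -2.01, -1.47 and -1.74, and R397W read -0.87, -0.82 and -1.66. I363V and R397W lay between Tconv and all other Treg arrays and overlapped each other. The A384T arrays lay at or below the wild-type Treg arrays, with 1 of the 3 inside their range.

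The wild-type Treg difference from Tconv in Il1rl2 was -3.02 ± 0.21 (SE, adjusted p = 3.24e-07, limma). From the top, the means were 0.00 ± 0.06 in Tconv (SD, n = 2), -1.12 ± 0.47 in R397W (n = 3), -1.74 ± 0.27 in I363V (n = 3), -2.90 ± 0.05 in WT GFP of A384T mice (n = 3), -3.02 ± 0.12 in WT hCD2 (n = 2), -3.02 ± 0.05 in WT GFP (n = 2) and -3.28 ± 0.24 in A384T (n = 3). R397W was below Tconv by a called difference (-1.12 ± 0.22, SE, adjusted p = 0.0132), as was I363V (-1.74 ± 0.22, adjusted p = 0.000302), and so was A384T (-3.28 ± 0.22, adjusted p = 2.67e-07). The R397W call ended without Tconv array 1 (adjusted p = 0.109) or 2 (0.0989) and with the spread of the compared groups alone (0.38). Of the wild-type difference from Tconv, A384T had 108.4%, I363V 57.6% and R397W 37.0% on the log2 scale. In the comparisons with Tconv, 2 of 6 receptors were called in A384T, 1 in I363V and 1 in R397W, against 6.52%, 2.51% and 2.02% of all genes.

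Against WT hCD2, Il1rl2 rose 2.43-fold in I363V (1.28 ± 0.22, SE, adjusted p = 0.012, limma) and 3.75-fold in R397W (1.91 ± 0.22, adjusted p = 0.000385). For A384T the difference was -0.26 ± 0.22 (95% interval -0.73 to 0.22, adjusted p = 0.823). Tested directly against A384T, I363V was 2.90-fold higher (1.54 ± 0.20, adjusted p = 0.00088) and R397W 4.47-fold higher (2.16 ± 0.20, adjusted p = 2.89e-05). R397W against I363V gave 0.62 ± 0.20 (adjusted p = 0.325). Of the 6 receptors, 1 was called in I363V against A384T and 2 in R397W against A384T, where 1.14% and 3.13% of all genes were called. With the spread of the compared groups alone, the calls against WT hCD2 ended (adjusted p = 0.105 in I363V and 0.1 in R397W), and the I363V call ended without WT hCD2 array 3 (0.0582) or 4 (0.194).

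These Il1rl2 results rest on 1 of its 2 probe sets. The other stayed between -0.55 and 0.23 on all arrays and was called in no comparison. It gave -0.25 ± 0.16 in wild-type Treg cells against Tconv (SE, adjusted p = 0.545, limma) and 0.05 ± 0.17 in R397W against WT hCD2 (adjusted p = 0.968). The variance was 1.31 for the probe set used and 0.041 for the other, and which one reads Il1rl2 RNA cannot be told from these values. With the mean of both probe sets, the differences were -1.64 in wild-type Treg cells against Tconv and 0.98 in R397W against WT hCD2.

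Il1rap, the accessory chain shared by the IL-1 and IL-36 receptors, was called in no comparison by any of its 5 probe sets. The arrays read -0.07 and 0.07 in Tconv, -0.27 and 0.06 in WT GFP, -0.37 and 0.13 in WT hCD2, and -0.13, -0.12 and -0.19 in WT GFP of A384T mice. A384T read -0.33, -0.15 and -0.13, I363V read 0.00, 0.07 and -0.06, and R397W read 0.12, 0.22 and -0.49. Each mutant overlapped WT hCD2. The A384T arrays lay below both Tconv arrays and below all I363V arrays, and the I363V arrays lay above those of WT GFP of A384T mice. Its changes ran from -0.20 to 0.21 over 13 pairwise comparisons, with interval bounds from -0.61 to 0.57 and a lowest adjusted p of 0.609 (limma).

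For the IL-18 receptor, the accessory chain stood low in the mutants. Il18rap read -0.68 and 0.68 in Tconv, -0.29 and 0.63 in WT GFP, -0.04 and 0.98 in WT hCD2, and 0.15, 0.64 and 0.80 in WT GFP of A384T mice. A384T read -1.06, -1.19 and -0.82, I363V read -1.18, -1.04 and -1.31, and R397W read -1.24, -1.51 and -1.33. All 9 mutant arrays lay below all 9 other arrays, Tconv included. I363V overlapped both other mutants, while every R397W array lay below every A384T array. The Tconv, WT GFP and WT hCD2 arrays of this gene spread widely, with 1 low and 1 high array in each group. The low ones were Tconv array 1, WT GFP array 1 and WT hCD2 array 3. Over all genes these arrays also deviated together from their group means (correlations of 0.71 to 0.77), so the spreads may not be independent.

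Il18rap was 3.56-fold lower in R397W than in WT hCD2 (-1.83 ± 0.37, SE, adjusted p = 0.0165, limma). The differences of I363V (-1.65 ± 0.37, 95% interval -2.44 to -0.86, adjusted p = 0.053) and A384T (-1.49 ± 0.37, 95% interval -2.28 to -0.70, adjusted p = 0.165) were not called. Between mutants, differences ran from -0.34 ± 0.33 (R397W minus A384T, 95% interval -1.04 to 0.37) to -0.16 ± 0.33 (I363V minus A384T, 95% interval -0.86 to 0.55), and none was called. Wild-type Treg cells did not differ from Tconv by a called test (0.32 ± 0.35, adjusted p = 0.759), nor did the mutants (R397W -1.36 ± 0.37, adjusted p = 0.0874). The other probe set of the gene gave -1.67 ± 0.36 in R397W against WT hCD2 (adjusted p = 0.0302). The R397W call ended without WT hCD2 array 4 (-1.32, adjusted p = 0.22) and with the spread of the compared groups alone (adjusted p = 0.129). The I363V difference was called without WT hCD2 array 3 (-2.16, adjusted p = 0.0446). Without Tconv array 1, the lower of the pair, Il18rap was called lower than Tconv in A384T (adjusted p = 0.0182), I363V (0.0193) and R397W (0.0124).

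Against WT hCD2, then, 3 of 6 receptors were called in R397W (Il1r2, Il1rl2 and Il18rap), 2 in I363V (Il1r2 and Il1rl2) and 0 in A384T. Of all genes, 2.26%, 0.912% and 0.280% were called in these comparisons. R397W and I363V did not differ by a called test in any of the 6 genes, where 0.0824% of all genes were called.

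Il18r1, the ligand-binding chain, read -0.07 and 0.07 in Tconv, 0.30 and 0.64 in WT GFP, 0.40 and 0.59 in WT hCD2, and 0.58, 0.44 and 1.02 in WT GFP of A384T mice. A384T read 0.28, 0.00 and 0.58, I363V read 0.23, 0.08 and 0.36, and R397W read 0.76, 0.88 and 0.45. Wild-type Treg arrays all lay above Tconv, and the mutants overlapped wild type. The difference of wild-type Treg cells from Tconv was 0.48 ± 0.19 (SE, 95% interval 0.08 to 0.89, adjusted p = 0.202, limma). It was called with array numbers as random blocks (0.48, adjusted p = 0.0229) and, for WT GFP alone, with the number as a fixed block (0.47 ± 0.12, adjusted p = 0.0189). The mutants against WT hCD2 gave -0.21 ± 0.20 (A384T), -0.27 ± 0.20 (I363V) and 0.20 ± 0.20 (R397W), none of them called, and R397W against Tconv gave 0.69 ± 0.20 (adjusted p = 0.109). Over the 18 arrays, Il18r1 and Il18rap had a Pearson r of 0.22, as a description.

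In A384T mice, mutant and wild-type Treg cells could be set side by side. Arrays of equal number deviated together from their group means, so the numbers were taken as pairs; this rests on the values, as no label states it. Il1r2 was lower in A384T in each pair, by differences of -1.17, -1.53 and -1.46. Il18rap differed by -1.21, -1.82 and -1.62, Il18r1 by -0.29, -0.45 and -0.44, and Il1rl2 by -0.47, -0.56 and -0.10. Pair differences were between -0.20 and 0.06 for Il1r1 and Il1rap. Il1r2, Il18rap, Il18r1 and Il1rl2 were thus lower in A384T in all 3 pairs. Il1r1 also kept its direction, with differences of 0.06, 0.05 and 0.01. The share of all genes that keep their direction in all 3 pairs was not counted.

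**Figure D3:**
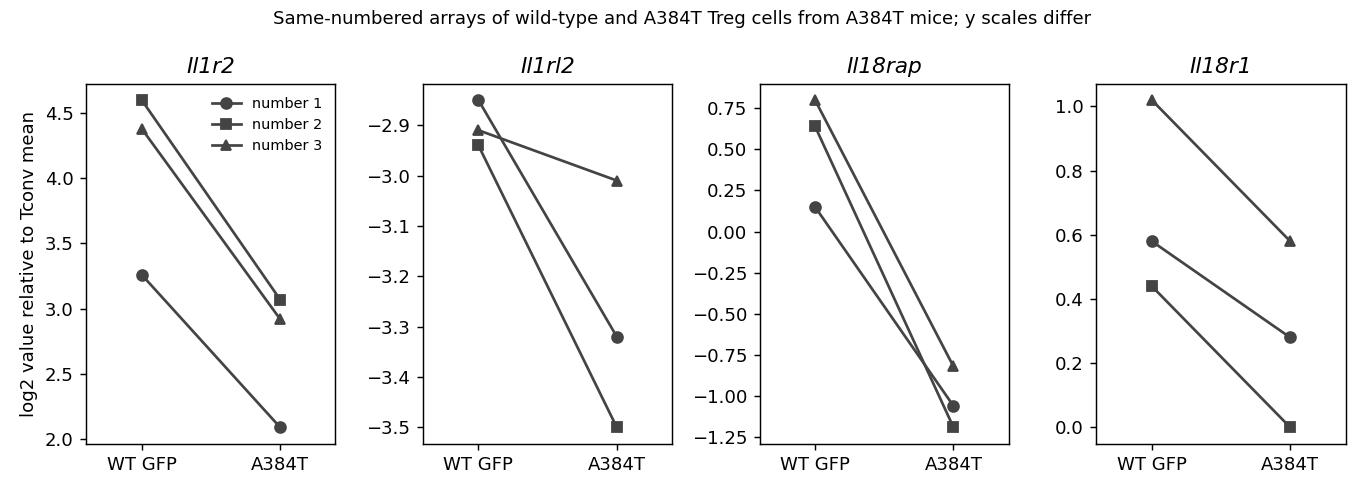
Log2 value relative to the Tconv mean (y axis) of 4 receptor genes in wild-type GFP and A384T Treg cells of A384T mice (x axis), with lines joining arrays of the same number and a y scale of its own for each gene. Each line falls, most for Il1r2 (-1.17 to -1.53) and Il18rap (-1.21 to -1.82).

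In the fit without pairs, 0 of 6 receptors were called in A384T against wild-type cells from A384T mice, where 0.522% of all genes were called. Il1r2 gave -1.39 ± 0.36 (SE, adjusted p = 0.163, limma) and Il18rap -1.55 ± 0.33 (adjusted p = 0.0594), and without wild-type array 1 Il1r2 was called (-1.80, adjusted p = 0.0325). With the number as a block, 3 were called: Il1r2 fell 2.62-fold (-1.39 ± 0.09, adjusted p = 8.87e-05), Il18rap fell 2.93-fold (-1.55 ± 0.11, adjusted p = 0.000162) and Il18r1 was lower by -0.39 ± 0.08 (adjusted p = 0.0237). The same change of fit took the count over all genes from 95 to 952. Il1rl2 stayed uncalled (-0.38 ± 0.10, adjusted p = 0.0742).

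The reporter and the host were compared through the wild-type Treg cells. The fits given here, the interaction below included, took each array as separate. The interaction was not fitted with the array number as a block, so its SE holds the spread between pairs too. WT hCD2 minus WT GFP gave 0.01 ± 0.44 for Il1r2 (SE, 95% interval -0.94 to 0.96), 0.00 ± 0.24 for Il1rl2 (-0.52 to 0.52) and 0.31 ± 0.40 for Il18rap (-0.56 to 1.17). WT GFP of A384T mice minus WT GFP gave 0.38 ± 0.41 for Il1r2 (-0.49 to 1.25), 0.12 ± 0.22 for Il1rl2 (-0.35 to 0.60) and 0.36 ± 0.37 for Il18rap (-0.43 to 1.15). Adjusted p was 1 for each of these in limma, and 0% of all genes were called in either comparison. When the difference within A384T mice was set against the reporter difference, the interaction was -1.40 ± 0.57 for Il1r2 (SE, adjusted p = 1, limma) and -1.86 ± 0.52 for Il18rap (adjusted p = 0.652), and none of the 6 was called against 0.0495% of all genes.

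Of the 6 receptor genes, 5 (all but Il1rap) lie in a cluster on chromosome 1 in the RefSeq annotation of GRCm38.p6, in the order Il1r2, Il1r1, Il1rl2, Il1rl1, Il18r1 and Il18rap. In R397W against WT hCD2, called genes (Il1r2, Il1rl2 and Il18rap) and uncalled genes (Il1r1 and Il18r1) alternated among those tested. In wild-type Treg cells against Tconv, Il1r1 between the called Il1r2 and Il1rl2 was not called, nor were the neighbours Il18r1 and Il18rap. The IL-33 receptor gene Il1rl1 was not tested because no probe set is assigned to it alone. Of the 3 annotated genes on either side, Rfx8, Map4k4, Slc9a4, Slc9a2 and Mfsd9 were tested and none was called in any comparison, while Gm3646 was not tested. Map4k4, the gene nearest to Il1r2 on its outer side, gave 0.59 ± 0.25 in R397W against WT hCD2 (SE, adjusted p = 0.358, limma).

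**Figure D4:**
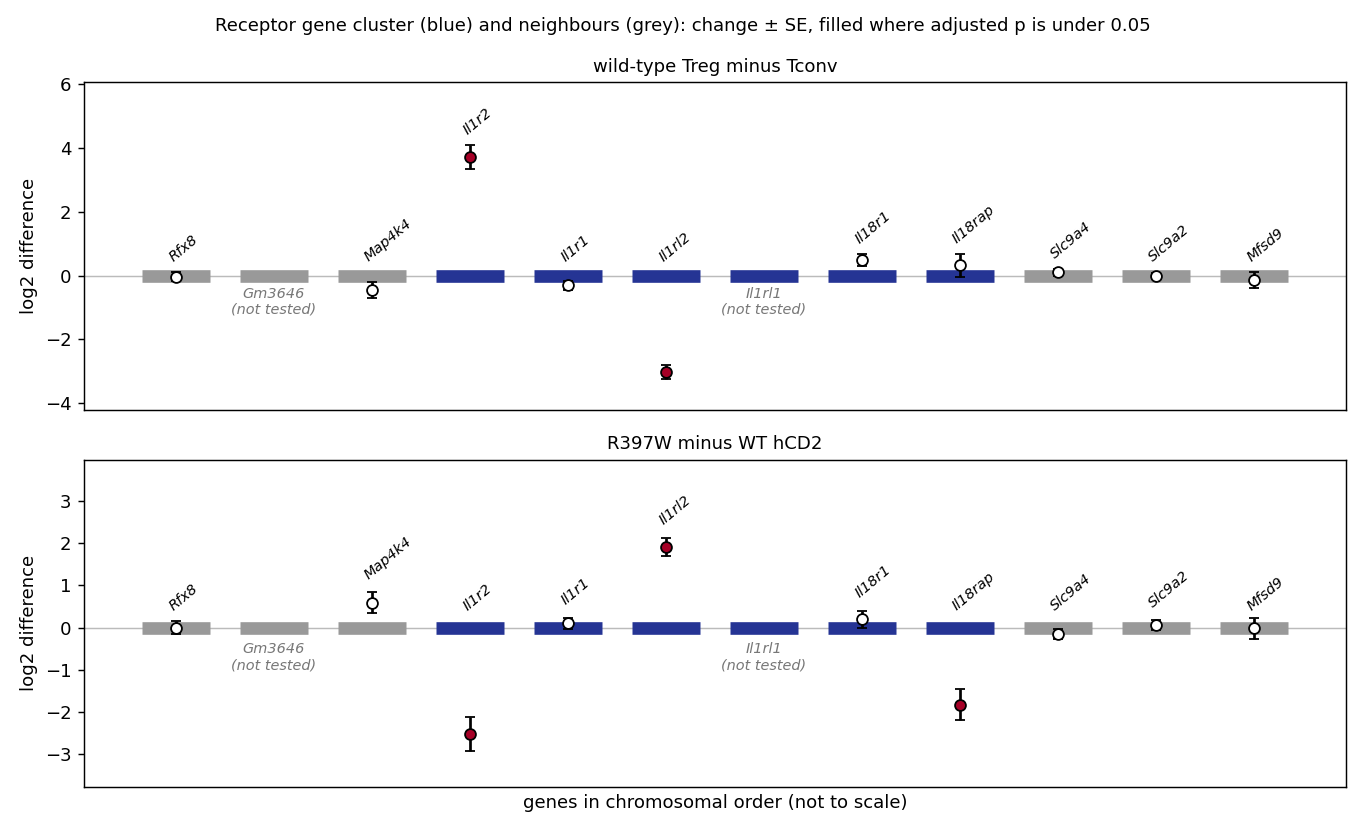
Log2 difference ± SE (y axis) of the receptor genes (blue bars) and 3 neighbours on each side (grey bars) in chromosomal order, not to scale, with points filled where the adjusted p is under 0.05. Il1r2 and Il1rl2 differ in opposite directions in wild-type Treg cells against Tconv (3.70 and -3.02), and Il1r2, Il1rl2 and Il18rap differ in R397W against WT hCD2 (-2.52, 1.91 and -1.83).

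Of the ligands, soluble inhibitors and processing enzyme of the family, 8 of 12 listed genes were measured. Caspase-1 (Casp1), the protease that matures IL-1 beta and IL-18, was the only one called in wild-type Treg cells against Tconv, where it rose by 1.46 ± 0.21 (SE, adjusted p = 0.0004, limma). Casp1 lay between 1.02 and 1.67 on the wild-type Treg arrays, between -0.29 and 0.29 in Tconv, and between -0.14 and 0.56 on all mutant arrays, so no mutant array reached the wild-type range. It was lower than in WT hCD2 in A384T (-1.22 ± 0.22, adjusted p = 0.0329) and in R397W (-1.25 ± 0.22, adjusted p = 0.00667), and I363V gave -0.99 ± 0.22 (adjusted p = 0.0501). Within A384T mice it was lower than in wild-type cells by a called test (-1.12 ± 0.20, adjusted p = 0.0176). Against WT hCD2, the A384T and R397W calls ended without WT hCD2 array 4 (adjusted p = 0.494 and 0.0957), and the A384T call also without WT hCD2 array 3 (0.103) or any A384T array (0.0668 to 0.127). Both calls ended with the spread of the compared groups alone (0.0838 in A384T and 0.141 in R397W). Within A384T mice the call ended without wild-type array 2 (0.0875) or 3 (0.118) or A384T array 1 (0.104) or 2 (0.0757).

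Il18, the ligand of Il18r1, was the other gene of this list that was called. It was lower than in WT hCD2 in I363V (-0.98 ± 0.21, SE, adjusted p = 0.0423, limma) and R397W (-0.92 ± 0.21, adjusted p = 0.0346). Its WT hCD2 arrays ranged from 0.22 to 0.95, and without array 4 the differences were -0.62 (adjusted p = 0.589) and -0.55 (0.37). Leaving out any array of the mutant also ended the I363V call (0.065 to 0.135) and the R397W call (0.0627 to 0.098), as did the spread of the compared groups alone (0.337 and 0.309). Setting array medians to 0 (0.0513) or array numbers as random blocks (0.057) ended the I363V call, and array weights (0.0556) ended that of R397W. Il1a, Il1b, Il1rn, Il18bp, Il33 and Il1f10 were called in no comparison. In R397W against WT hCD2 the list's median was -0.09 against -0.02 over all genes, with 2 of 8 called lower.

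Below the receptors, 22 of 25 listed signalling genes and 3 of 4 other receptors of the family were measured, and none of them was called in a mutant against WT hCD2. Irak2, an IRAK family member, was higher in wild-type Treg cells than in Tconv (0.67 ± 0.16, SE, adjusted p = 0.0192, limma), as was Nfkb2, which encodes the p100 subunit of NF-kB (1.07 ± 0.24, adjusted p = 0.0149). The median of the signalling list was 0.15 there, against -0.01 over all genes. A384T exceeded Tconv in the same 2 genes (Irak2 0.78, adjusted p = 0.00957, and Nfkb2 1.30, adjusted p = 0.00547), in the NF-kB inhibitor Nfkbia (1.53 ± 0.37, adjusted p = 0.0194) and in Sigirr, an inhibitory receptor of the family (0.89 ± 0.23, adjusted p = 0.034). I363V and R397W had no called gene of these lists against Tconv, although their means also lay above it. The I363V and R397W means were 0.43 and 0.53 for Irak2 and 0.59 and 0.36 for Nfkb2. For Nfkbia they were 1.35 and 0.73, and for Sigirr 0.81 and 0.64. WT GFP and WT hCD2 read 1.02 and 0.98 for Nfkbia and 0.76 and 0.67 for Sigirr. No gene of these lists was called in I363V against A384T. Nfkb2 was lower in R397W than in A384T (-0.94 ± 0.23, adjusted p = 0.0393). The Irak2 and Nfkb2 calls of wild-type Treg cells against Tconv ended without Tconv array 1 (adjusted p = 0.116 and 0.0597) or 2 (0.149 and 0.183). The Irak2 call there also ended without WT GFP array 1 (0.0669) or WT hCD2 array 4 (0.0551) and with only the groups compared (0.0764), and the Nfkb2 call without WT hCD2 array 3 (0.0541). In A384T against Tconv, without Tconv array 2, the adjusted p was 0.31 for Sigirr, 0.293 for Nfkbia, 0.0854 for Irak2 and 0.0828 for Nfkb2. Without Tconv array 1 it was 0.0634 for Sigirr and 0.0571 for Irak2, and leaving out any A384T array ended the Sigirr (0.0661 to 0.0934) and Nfkbia calls (0.0508 to 0.056). Nfkb2 in R397W against A384T was not called without A384T array 2 (0.162) or 3 (0.132) or R397W array 1 (0.0802) or 2 (0.124), or with only the groups compared (0.158). The mean of all its probe sets (-0.63, 0.0672) and the array number as a block (0.246) ended that call too. The block also ended all these calls of A384T against Tconv (Sigirr 0.132, Irak2 0.146, Nfkb2 0.0832 and Nfkbia 0.0557).

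**Figure D5:**
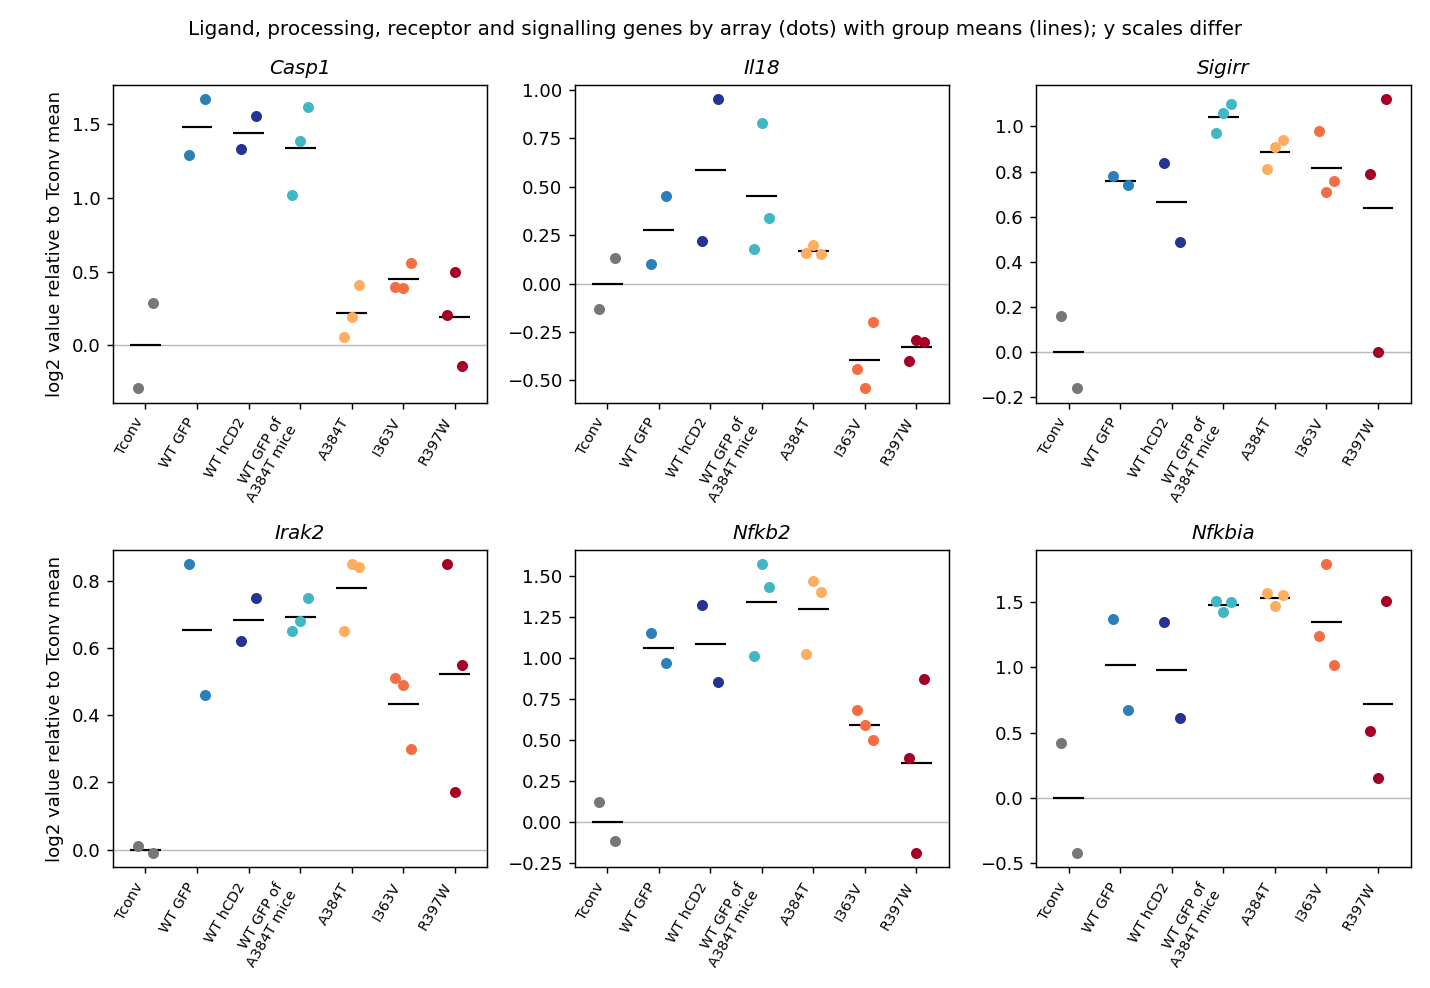
Log2 value relative to the Tconv mean (y axis) of pathway genes called in any comparison, on each array (dots) by group (x axis), with group means as lines. Casp1 lies between 1.02 and 1.67 in wild-type Treg groups and between -0.14 and 0.56 in the mutants.

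Marker genes of other cell types were read beside the receptors. Of 10 myeloid and neutrophil markers, cells known for Il1r2, 9 were measured, and their mean per array was 0.16 to 0.34 in WT hCD2, -0.55 to 0.41 in A384T, -0.16 to -0.02 in I363V and -1.0 to -0.70 in R397W. Among these 9 markers Lyz2, which encodes lysozyme, was the only one called in R397W against WT hCD2 (-2.66 ± 0.35, SE, adjusted p = 0.000849, limma), and none was called in I363V or A384T. Of 8 CD8 T and natural killer markers, cells known for Il18rap, 7 were measured, with means of -0.53 to -0.50 in WT hCD2, -0.79 to -0.42 in A384T, -0.54 to -0.51 in I363V and -0.76 to -0.54 in R397W, and none was called in a mutant against WT hCD2. In wild-type Treg cells against Tconv, 2 of these 7 were called lower: Prf1, which encodes perforin (-1.99 ± 0.25, SE, adjusted p = 0.000137, limma), and Eomes (-1.25 ± 0.20, adjusted p = 0.001). No myeloid marker was called there.

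Of the dendritic cell markers, 5 were measured, and their mean per array was -0.18 to 0.18 in Tconv, -0.30 to -0.21 in WT GFP and -0.33 to -0.21 in WT hCD2. In the wild-type Treg comparison with Tconv, in which Il1rl2 was lower, 2 of them were lower as well, Flt3 (-0.51 ± 0.14, SE, adjusted p = 0.0431, limma) and Itgax (-1.16 ± 0.25, adjusted p = 0.0114). Against Tconv, 2 dendritic markers were also called lower in each of A384T, I363V and R397W. In I363V and R397W against WT hCD2, where Il1rl2 was higher, no dendritic marker was called. The list's median there was -0.04 in each, against -0.02 over all genes. Of 6 B cell markers measured, Cd79b was higher in wild-type Treg cells than in Tconv (2.21 ± 0.26, adjusted p = 5.75e-05), and Cd22 was lower in I363V than in WT hCD2 (-1.03 ± 0.23, adjusted p = 0.0476). No marker of mast cells and basophils or of stromal and endothelial cells was called in these comparisons. The part of other cell types in the receptor differences was not tested.

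The arrays of the receptor genes were last compared with those of all other genes by Pearson correlation over the 18 arrays, as a description without a test, since arrays of a group share its condition. Il1r2 was most like Itm2c, Il12rb1 and Stx11 (r = 0.97 each). Il1rl2 was most like Sgk1 (0.96), Sema4a (0.95) and Il2 (0.95), and Il18rap was most like S100a4 (0.94), Ctla2b (0.94) and Chdh (0.93). Likeness was lower for Il18r1, whose nearest genes were AI504432 (0.75), Nsd2 (0.74) and Hif1a (0.74). For Il1r1 they were G6pc (0.86), Ccn5 (0.86) and Sec16a (0.85), and for Il1rap they were Nde1 (0.90), Osbpl11 (0.90) and Spast (0.89). Between receptor genes, r was -0.86 for Il1r2 and Il1rl2, 0.58 for Il1r2 and Il18rap, and -0.28 for Il1rl2 and Il18rap. By variance over the arrays, Il1r2 (2.13) stood at the 99.8th percentile of all genes, Il1rl2 (1.31) at the 99.6th and Il18rap (0.767) at the 98.7th, whereas Il18r1 (0.091) stood at the 73.2nd, Il1rap (0.0364) at the 48.5th and Il1r1 (0.0295) at the 41.4th.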

How the data were processed

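RNA of 18 samples was read on Affymetrix mouse arrays with 45101 probe sets after two-cycle labelling, per the labels' protocols. The values are log2 as deposited by the authors, who used RMA per the submitters' processing notes. The log base follows the convention of RMA, and software, version and build are not given in the sources used here. At each probe set the 2 Tconv arrays sum to at most 1.0e-06, so levels are lost and differences are kept. Array medians ran from -0.063 to 0.016, and no further normalization was applied. Background correction, a filter on dim probe sets and scan batches were not analysed here. In the chip annotation, 34945 probe sets had a single gene, 932 had more than 1, 9160 had no gene and 64 were controls. Genes with several probe sets (9009 of 18194) were represented by the most variable one, and 18032 symbols matched RefSeq.

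Group means of all 18 arrays were fitted with limma 3.58.1 in R 4.3.3 (11 residual and 3.3 prior degrees of freedom), with two-sided moderated tests and Benjamini-Hochberg adjustment over all genes. The script was tested on simulated data. In A384T mice, equal array numbers of mutant and wild-type cells correlated at 0.69, 0.65 and 0.58 across genes in their deviations from the group means, which is the source of the pairing. Tables and plots used Python 3.11.15, numpy 2.4.6, pandas 2.3.3 and matplotlib 3.10.9. The genes named are the 6 receptors, called genes of the pathway lists, 3 neighbours on each side of the cluster, the 3 most correlated genes of each receptor and Foxp3. Other genes of the marker lists are named where a count was 5 or fewer. The receptors and the lists were chosen with earlier results of these data known.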

Additional observations from a re-analysis of the deposited data

How the results depend on the processing

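Alternatives changed the probe set rule, the arrays in the fit, the array medians, the genes tested, array weights and blocks, and left out each array in turn. An array left alone in its group was assumed to vary like the other groups. In wild-type Treg cells and in A384T against Tconv, the Il1r2 and Il1rl2 calls were kept under every alternative run. For Il1rl2 this holds for its most variable probe set and for the mean of both. Il1r2 lay between 3.48 and 3.93 and Il1rl2 between -3.06 and -1.64 in wild-type Treg cells against Tconv. The other Il1rl2 probe set, tested alone, was called neither there (-0.25 ± 0.16, SE, adjusted p = 0.545, limma) nor in A384T against Tconv (-0.32 ± 0.17, adjusted p = 0.36). The number of receptors called moved as follows. With only the groups compared it was 0 for I363V and R397W against WT hCD2 and for R397W against Tconv, and 1 for R397W against A384T and for A384T against WT GFP of A384T mice. With the least variable genes left out it was 1 within A384T mice, 3 for I363V against WT hCD2 and 2 for I363V and R397W against Tconv. With the mean of all probe sets of a gene it was 3 for I363V against WT hCD2 and 2 for I363V against Tconv. Array weights gave 2 within A384T mice, 3 for I363V against WT hCD2 and 1 for R397W against A384T, and a random replicate block (correlation 0.65) gave 3 within A384T mice, 3 for wild-type Treg cells against Tconv (Il18r1 added), 3 for I363V against WT hCD2 (Il18rap added) and 2 for I363V against Tconv. With the replicate number as a block it was 3 within A384T mice, 4 for WT GFP against Tconv (Il18r1 and Il1r1 added) and 0 for I363V and R397W against A384T and against Tconv. Of all genes, the block called 952 within A384T mice and 3347 for WT GFP against Tconv. It called 29 (I363V) and 48 (R397W) against A384T, and 56 (I363V) and 42 (R397W) against Tconv. For the other alternatives of this paragraph the count over all genes is not given, so their receptor counts have no share beside them. Equal numbers of Tconv and WT GFP deviated together with a correlation of 0.71. WT GFP arrays 1 and 2 did so with WT hCD2 arrays 3 and 4 (0.77), as did Tconv arrays 1 and 2 (0.72). Groups of 2 do not settle a pairing, and the main fit took these arrays as separate. Equal numbers of I363V or R397W correlated between -0.32 and 0.07 with A384T and between -0.18 and 0.26 with Tconv. For these comparisons the values gave no pairing to block on. With 1 array left out, counts ran from 0 to 2 for I363V and from 2 to 3 for R397W against WT hCD2, from 0 to 1 within A384T mice, from 1 to 2 for R397W against A384T, from 2 to 3 for A384T, 1 to 2 for I363V and 0 to 1 for R397W against Tconv, and stayed at 2 for wild-type Treg cells against Tconv and 1 for I363V against A384T.

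Il18rap in I363V against WT hCD2 became called with the mean of its probe sets (adjusted p = 0.0365, limma), the least variable genes left out (0.0242), array weights (0.0394) or a random block (0.0283). Against the mean of WT hCD2 and WT GFP, an alternative chosen after seeing the data, it was -1.50 ± 0.31 (SE, adjusted p = 0.0225). Direction turned only in comparisons that were not called. With the mean of probe sets, Il1rl2 became -0.05 in WT GFP of A384T mice and -0.02 in WT hCD2 against WT GFP, and with array medians at 0, Il1r2 and Il1rl2 became -0.03 and -0.04 in the latter. With 1 array left out, Il18rap ran from -0.36 to 1.0 in wild-type Treg cells against Tconv, from -0.10 to 0.82 in WT GFP of A384T mice and from -0.20 to 0.81 in WT hCD2 against WT GFP. Il1r2 ran from -0.08 to 0.84 and from -0.45 to 0.46 in those last comparisons, and Il1rl2 from -0.08 to 0.08 in the second of them. Levels over background are lost, so dim and bright probe sets could not be told apart.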
